A study of Homo sapiens with 6 samples.

Results

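CD44, its hyaluronan partners and the syndecans form much of the sugar-carrying and sugar-binding surface of an epithelial tumor cell. The 10 genes described here were taken from the count table by their gene names, out of 36887 genes in all. They are the hyaluronan receptors CD44 and HMMR, the hyaluronan synthases HAS2 and HAS3, the hyaluronidases HYAL1 and HYAL2, and the syndecans SDC1, SDC2, SDC3 and SDC4. RNA-seq was carried out on 5637 cells, a human bladder carcinoma line, in which the SNARE protein YKT6 was silenced by siRNA. The 3 control samples carried a negative control siRNA (siNC, genotype labelled WT) and the other 3 an siRNA against YKT6 (siYKT6, labelled YKT6 knockdown), and RNA was collected 48 h after transfection. All 6 samples bear the same batch label and come from a single line. Neither the labels nor the methods say whether a sample's number marks a separate culture or a different siRNA, so that p values cover the variation of these 6 samples alone, which may be technical.

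Hyaluronan is a long unbranched sugar polymer that the HAS enzymes make at the plasma membrane from UDP-glucuronic acid and UDP-N-acetylglucosamine and extrude into the pericellular space. CD44 is its main receptor at the cell surface and links it to the actin cytoskeleton, and HYAL2 at the surface and HYAL1 in the lysosome cut it into fragments. Syndecans are membrane-spanning core proteins whose heparan sulfate chains bind growth factors and matrix proteins, SDC1 being the form typical of epithelia.

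The sequences upstream of HMMR, CD44 and HAS3, 3 of the genes that were lower in siYKT6, are shown first. Each is the 250 bases before the RefSeq start site (GRCh38.p14), written 5′ to 3′ on the gene's strand, and 8 of the 10 genes had a promoter window in the table used. Capitals mark 6 words searched on either strand. They are the CCAAT box, the cell cycle homology word TTTGAA of many mitotic genes, the words CTTTGA and, in another form, CTTTGT that TCF factors can bind, the E-box word CACGTG and the GC box word GGGCGG. On the opposite strand the first reads ATTGG, and the GC box reads CCGCCC. The windows are chr5:163460382-163460631 for HMMR, chr11:35138921-35139170 for CD44 and chr16:69107290-69107539 for HAS3, all on the plus strand.
HMMR: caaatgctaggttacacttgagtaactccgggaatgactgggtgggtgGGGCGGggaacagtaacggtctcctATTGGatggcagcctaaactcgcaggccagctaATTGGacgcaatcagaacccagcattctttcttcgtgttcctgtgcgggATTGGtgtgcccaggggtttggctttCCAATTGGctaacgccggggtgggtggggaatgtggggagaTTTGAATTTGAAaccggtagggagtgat
CD44: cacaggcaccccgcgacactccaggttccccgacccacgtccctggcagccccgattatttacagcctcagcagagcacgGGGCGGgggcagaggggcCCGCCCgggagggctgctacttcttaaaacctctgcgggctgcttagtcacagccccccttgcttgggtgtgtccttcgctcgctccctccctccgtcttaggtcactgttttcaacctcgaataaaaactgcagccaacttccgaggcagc
HAS3: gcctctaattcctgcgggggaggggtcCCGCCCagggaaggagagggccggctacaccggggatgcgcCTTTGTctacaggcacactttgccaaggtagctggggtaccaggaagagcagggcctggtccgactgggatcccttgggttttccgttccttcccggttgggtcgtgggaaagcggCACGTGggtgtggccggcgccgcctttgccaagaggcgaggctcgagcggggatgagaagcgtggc

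The HMMR window held 5 CCAAT words, at positions -177, -144, -95, -69 and -66 from the start, the last 2 overlapping, and 2 TTTGAA words side by side at -28 and -22. It also held a GC box at -202. CCAAT was present in 32.0% of all 35116 promoter windows of this length, TTTGAA in 13.3% and both together in 4.7%. None of the other 7 windows held CCAAT or TTTGAA. CD44 had 2 GC boxes, at -170 and -152, and none of the other words. HAS3 had CTTTGT at -182, CACGTG at -66 and a GC box at -223. The GC box was the only searched word held by each of the printed windows. Any part of these words in the values below was not tested. CTTTGT, which stood in 13.7% of all windows, was also found upstream of HYAL1 and SDC1, and CTTTGA, found in 11.2%, was in none of the 8. CACGTG occurred in 6.3% of windows and GGGCGG in 42.6%, and SDC4 carried 8 GC boxes and SDC3 5. Shares were also taken by gene, a gene counting when any of its windows held the word. Of 11431 tested genes with a window they were 41.1% for CCAAT, 12.4% for TTTGAA, 4.9% for both, 13.5% for CTTTGT, 10.9% for CTTTGA, 10.9% for CACGTG and 71.5% for GGGCGG. GC boxes were thus common in tested genes, but shares of genes and shares of windows are different measures. These matches describe letters and not binding.

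A second pair of sequences concerns the 3′ end. Among 16015 words of 7 bases, each present in the longest GENCODE 3′ UTR of at least 100 of 13243 tested genes, CTCTACA was the word whose holders had the lowest mean log2 fold change in siYKT6 relative to the other genes and the spread. Of its 1503 holders 36.7% were lower and 12.8% higher, against 19.1% and 18.7% of the genes without it, a description and not independent evidence, because the word was picked on this contrast. HMMR was the one gene of the 10 whose longest 3′ UTR, of 777 bases, held the word. The site lies in this 3′ UTR at chr5:163491810-163491836 (GRCh38, plus strand), and the spindle gene NUSAP1 has another at chr15:41380773-41380799. The word is in capitals.
HMMR: atctgagaaaCTCTACAtgtaactatt
NUSAP1: aaaaataaaaCTCTACAactcattcta
Any part of the word in the HMMR values below was not tested.

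The libraries held 45205238 to 64982015 counts assigned to genes. YKT6 itself stood at 64.5, 65.3 and 68.2 CPM (counts scaled to the normalized library size) in siNC and 17.7, 19.4 and 17.3 CPM in siYKT6, so that 27.5% of its RNA was left (log2 fold change -1.86, standard error 0.0477, edgeR adjusted p = 5.3e-17). The exact two-sided permutation test gave p = 0.1, the smallest that 3 samples against 3 allow. All 8 epithelial markers checked were above 1 CPM in the line, with summed levels of 4478 to 4611 CPM in siNC and 3352 to 3543 CPM in siYKT6. Of the leukocyte, endothelial and fibroblast markers 1 of 6, 0 of 5 and 2 of 5 were above 1 CPM, with sums of 4.51 to 5.22, 0.941 to 1.57 and 26.5 to 28.6 CPM in siNC and of 3.48 to 4.40, 1.56 to 1.74 and 30.8 to 32.9 CPM in siYKT6, and no marker was at 0 in all samples. Mitochondrial genes took 7.91% to 8.24% of counts in siNC and 8.44% to 8.73% in siYKT6, and any part of these shifts in the results was not tested. In bulk RNA, fewer cells of a kind and less RNA per cell cannot be told apart.

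All 10 genes passed the filter on low counts. In edgeR's quasi-likelihood test with Benjamini-Hochberg adjustment over 21036 genes, 5 of the 10 were lower in siYKT6 (CD44, HMMR, HAS2, HAS3 and SDC1), 1 was higher (HYAL2) and 4 did not pass at an adjusted p of 0.05 (HYAL1, SDC2, SDC3 and SDC4). Over all genes tested the background was 30.8% called, with 16.3% lower and 14.6% higher. The CPM values of the 2 groups did not overlap for 8 of the 10 genes, against 41.8% of all genes tested. The median log2 fold change of the 10 was -0.24, and that of all tested genes was 0.0022. These counts were not tested against the background, since the genes were chosen with results of these data known.

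**Figure D1:**
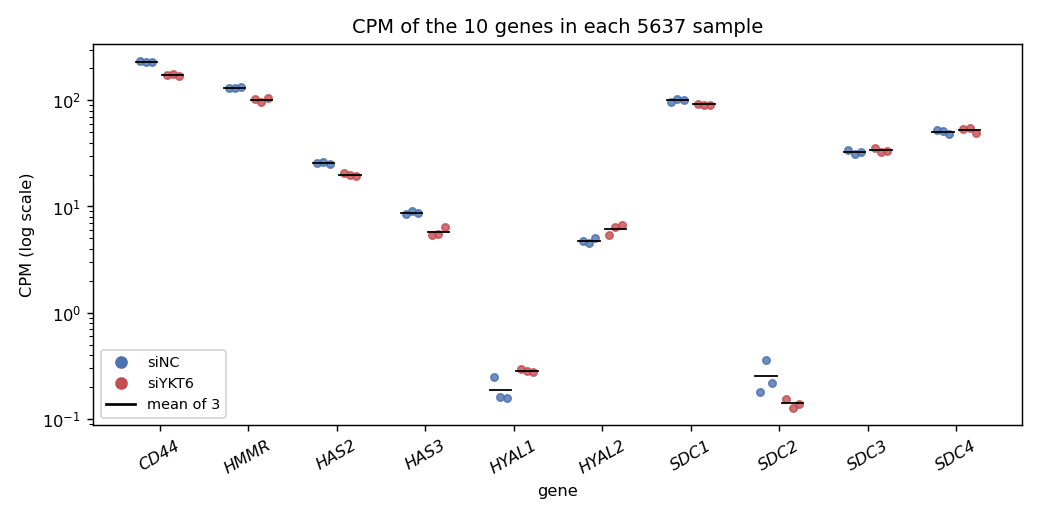
CPM (log scale) of the 10 genes in each of the 3 siNC and 3 siYKT6 samples, with a line at each mean. CD44, HMMR, HAS2, HAS3 and SDC1 sit lower in all 3 siYKT6 samples, HYAL2 sits higher, SDC3 and SDC4 overlap, and HYAL1 and SDC2 lie below 1 CPM.

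CD44 (chr11:35138870-35232402, plus strand, GRCh38) was the most highly counted of the 10. Its level was 233, 229 and 230 CPM in siNC and 173, 177 and 169 CPM in siYKT6. The 3 control values lay within a few CPM of each other and every siYKT6 value lay far below them. This was a fall of 25.0% (log2 fold change -0.41, standard error 0.0323, 95% interval -0.48 to -0.35, edgeR adjusted p = 2.3e-09). Counts are summed over all exons of the gene, so the standard and variant-exon forms of CD44, which epithelial cells splice under the control of ESRP1, were not separated here. ESRP1 itself stood at 149 ± 1.46 CPM in siNC and 151 ± 1.49 CPM in siYKT6 (SD, n = 3, edgeR adjusted p = 0.75).

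HMMR (chr5:163460203-163491945, plus strand), also known as RHAMM, binds hyaluronan and, inside the cell, microtubules and the mitotic spindle. It was measured at 130, 130 and 133 CPM in siNC and at 102, 96.7 and 106 CPM in siYKT6. The groups were well apart, with siYKT6 replicate 2 the lowest of the 6. HMMR fell by 22.6% (log2 fold change -0.37, standard error 0.0371, 95% interval -0.45 to -0.29, edgeR adjusted p = 9.9e-08).

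HAS2 (chr8:121612116-121641390, minus strand), which makes long hyaluronan chains, was the more abundant synthase. Its samples read 25.5, 26.3 and 25.3 CPM in siNC and 20.5, 19.99 and 19.5 CPM in siYKT6, without overlap. The fall of 22.1% (log2 fold change -0.36, standard error 0.0487, 95% interval -0.46 to -0.26, edgeR adjusted p = 5.7e-06) was close in size to that of HMMR.

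HAS3 (chr16:69105564-69118719, plus strand), the synthase that makes shorter chains, stood at 8.50, 9.03 and 8.62 CPM in siNC. In siYKT6 it was 5.39, 5.48 and 6.41 CPM, so that replicate 3 was the highest of its group but still below every control. Its log2 fold change of -0.60 (standard error 0.0840, 95% interval -0.78 to -0.42, edgeR adjusted p = 9.1e-06) corresponds to a fall of 34.0%. The ratio of HAS3 to HAS2 per unit of gene length was 0.264, 0.272 and 0.270 in siNC and 0.208, 0.217 and 0.261 in siYKT6. The ratios did not overlap, and the exact permutation test gave p = 0.1 (adjusted p = 0.2 over the 2 ratios tested), which is its limit in this design. HAS1, the third synthase, had 0 to 6 counts in each library and was left out by the filter on low counts.

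HYAL2 (chr3:50317790-50322906, minus strand), a GPI-anchored hyaluronidase that cuts long chains at the cell surface, was the one gene of the 10 that rose. It measured 4.70, 4.48 and 5.04 CPM in siNC and 5.44, 6.45 and 6.72 CPM in siYKT6. The lowest siYKT6 sample, replicate 1, lay only slightly above the highest control. The rise was 30.2% (log2 fold change 0.38, standard error 0.0987, 95% interval 0.18 to 0.59, edgeR adjusted p = 0.0050). Its exons share 509 bases with TUSC2 on the same strand, which was also higher, at 9.57 ± 0.107 CPM in siNC and 11.7 ± 0.822 CPM in siYKT6 (SD, n = 3, log2 fold change 0.28, edgeR adjusted p = 0.0036). Within the shared bases, strand cannot tell HYAL2 and TUSC2 apart. Any part of TUSC2 reads in the HYAL2 values was not tested.

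HYAL1 (chr3:50299889-50312381, minus strand), the lysosomal hyaluronidase, was close to the limit of detection. It had 11, 8 and 10 counts in the siNC libraries and 19, 18 and 16 counts in the siYKT6 libraries, or 0.246, 0.160 and 0.156 CPM and 0.292, 0.284 and 0.277 CPM. The groups did not overlap, but the log2 fold change of 0.62 had a 95% interval of -0.24 to 1.49 and did not pass the test (edgeR adjusted p = 0.29). The ratio of HYAL2 to HYAL1 per length was 18.3 ± 4.67 in siNC and 15.1 ± 2.00 in siYKT6 (SD, n = 3, exact permutation p = 0.3). A difference in HYAL1 of the size seen for HYAL2 was thus not detectable at this depth.

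SDC1 (chr2:20200797-20225433, minus strand) was the most abundant syndecan. Its values were 95.5, 103 and 101 CPM in siNC and 92.8, 90.1 and 91.3 CPM in siYKT6. The groups did not overlap, but siNC replicate 1 lay only a little above the highest siYKT6 sample. The log2 fold change of -0.13 (standard error 0.0369, 95% interval -0.20 to -0.05, edgeR adjusted p = 0.011), a fall of 8.49%, was the smallest of those that passed. It did not pass without siNC replicate 2 (adjusted p = 0.0505), siNC replicate 3 (0.0565) or siYKT6 replicate 2 (0.0568).

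SDC4 (chr20:45325288-45348424, minus strand), which gathers at focal adhesions with integrins, showed 52.2, 51.9 and 47.8 CPM in siNC and 53.4, 54.6 and 48.8 CPM in siYKT6. The 2 groups overlapped (log2 fold change 0.05, 95% interval -0.05 to 0.15, edgeR adjusted p = 0.50). SDC3 (chr1:30869467-30908761, minus strand), best known from neural tissue, overlapped as well, at 34.4, 31.4 and 32.8 CPM in siNC and 35.3, 32.3 and 33.4 CPM in siYKT6. Its log2 fold change was 0.04 with a 95% interval of -0.06 to 0.14 (edgeR adjusted p = 0.62). For both genes a change as large as that of CD44 lies outside the interval.

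SDC2 (chr8:96493351-96611780, plus strand), the syndecan of mesenchymal cells, was nearly undetected, with 8, 18 and 14 counts in siNC and 10, 8 and 8 counts in siYKT6. That amounts to 0.179, 0.360 and 0.218 CPM against 0.154, 0.126 and 0.138 CPM. The log2 fold change of -0.84 had a 95% interval of -1.79 to 0.11 and did not pass (edgeR adjusted p = 0.18), and no direction can be read at these counts.

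**Figure D2:**
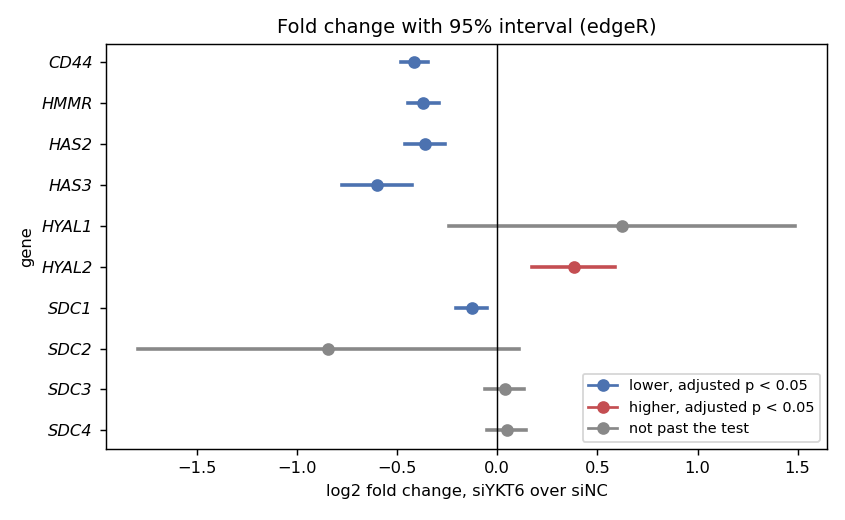
Log2 fold change of siYKT6 over siNC for the 10 genes, with 95% intervals derived from the edgeR test (n = 3 per group). The intervals of CD44, HMMR, HAS2, HAS3 and SDC1 lie below 0 and that of HYAL2 above it, while those of HYAL1 and SDC2 are the widest.

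Levels of different genes were compared as CPM per kb of exon length. In siNC the order was HMMR, SDC1, CD44, SDC4, HAS2, SDC3, HAS3, HYAL2, HYAL1 and SDC2, and among neighbours only HYAL1 and SDC2 had overlapping ranges. The top level, HMMR, ranged from 33.0 to 33.8 CPM per kb, SDC1 from 26.6 to 28.5, CD44 from 22.7 to 23.2 and SDC4 from 18.3 to 19.996. The order by mean in siYKT6 differed at 2 places. CD44, at 16.8 to 17.6 CPM per kb, stood below SDC4, at 18.7 to 20.9. HYAL2, at 1.196 to 1.48 CPM per kb, had a higher mean than HAS3, at 1.02 to 1.21, but their ranges overlapped, whereas in siNC HAS3 was above it. HMMR, at 24.6 to 26.8 CPM per kb, kept the top mean but overlapped SDC1, at 25.1 to 25.8, and HAS2 and SDC3 also overlapped.

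No difference in the mix of syndecans was detectable in this design. SDC1 made up 53.5% ± 1.79 of the summed per-length level of the 4 syndecans in siNC and 50.6% ± 1.23 in siYKT6 (SD, n = 3, exact permutation p = 0.2, adjusted p = 0.27). SDC4 made up 37.4% ± 1.58 and 39.8% ± 1.52 (exact permutation p = 0.2, n = 3 per group). SDC3 contributed 8.97% ± 0.537 in siNC and 9.49% ± 0.381 in siYKT6, and SDC2 0.107% ± 0.0384 and 0.0612% ± 0.00558. None of the 4 shares passed the exact test, which cannot go below p = 0.1 here.

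Genes that supply hyaluronan synthesis were mostly lower. Of 11 listed genes for the synthases and their sugar nucleotides 10 were tested, 8 were lower and 0 higher in edgeR, and the median log2 fold change was -0.25. Without HAS2 and HAS3 the count was 6 of 8 lower, with a median of -0.21, beside a background of 16.3% lower. DESeq2 called 7 lower and limma-voom 8, each with 0 higher, and 0 rose at an unadjusted p of 0.05. Leaving out 1 sample gave 6 to 8 lower. GNPNAT1, which acetylates glucosamine-6-phosphate on the way to UDP-N-acetylglucosamine, had 35.9 ± 2.65 CPM in siNC and 24.1 ± 0.988 CPM in siYKT6 (SD, n = 3, log2 fold change -0.58, edgeR adjusted p = 2.8e-08). GFPT2, an isoform of the rate-limiting enzyme of the hexosamine pathway, fell from 29.6 ± 0.641 to 21.4 ± 0.828 CPM (log2 fold change -0.47, edgeR adjusted p = 1.3e-07). Its isoform GFPT1 did not pass (log2 fold change 0.07), nor did UGP2 (-0.0032), which makes UDP-glucose. The remaining 4 that were lower, named after their values were seen, were UGDH (-0.26), PGM1 (-0.23), UAP1 (-0.20) and PGM3 (-0.11, edgeR adjusted p = 0.044). Of these, UGDH makes UDP-glucuronic acid and UAP1 UDP-N-acetylglucosamine.

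Among 8 tested genes of hyaluronan breakdown 2 were higher and 5 did not pass, and 1 is not reported here. The β-glucuronidase GUSB rose with HYAL2, from 17.7 ± 1.54 to 20.7 ± 0.918 CPM (SD, n = 3, log2 fold change 0.22, edgeR adjusted p = 0.0097). Without siNC replicate 1, or without siYKT6 replicate 2, 1 gene in place of 2 was higher, and this was HYAL2. With upper quartile scaling, no filter, the replicate block, halved counts or without siYKT6 replicate 3, 3 genes were higher. TMEM2 (-0.04) and CEMIP (0.04), which have also been linked to hyaluronan breakdown, did not pass.

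Among 12 tested hyaluronan receptors and binding proteins, of 26 listed and 22 in the table, 7 were lower and 1 higher, with a median log2 fold change of -0.38. Leaving aside CD44 and HMMR, 5 of 10 were lower and the median was -0.31. C1QBP, which binds hyaluronan and is found in mitochondria and at the cell surface, went from 86.4 ± 1.81 down to 65.4 ± 3.05 CPM (SD, n = 3, log2 fold change -0.40, edgeR adjusted p = 8.4e-08). In PTX3, a secreted pentraxin of hyaluronan-rich matrix, the level fell from 16.9 ± 1.13 to 11.7 ± 0.841 CPM (log2 fold change -0.53, edgeR adjusted p = 2.5e-06). HABP4, an intracellular protein that binds hyaluronan and RNA, rose from 18.8 ± 1.02 to 26.2 ± 0.811 CPM (log2 fold change 0.48, edgeR adjusted p = 3.3e-07). The other 3 that were lower, named after their values were seen, were the receptors LAYN (-0.72), TLR4 (-0.48) and TLR2 (-0.43), with group means of at most 5.54 CPM.

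**Figure D3:**
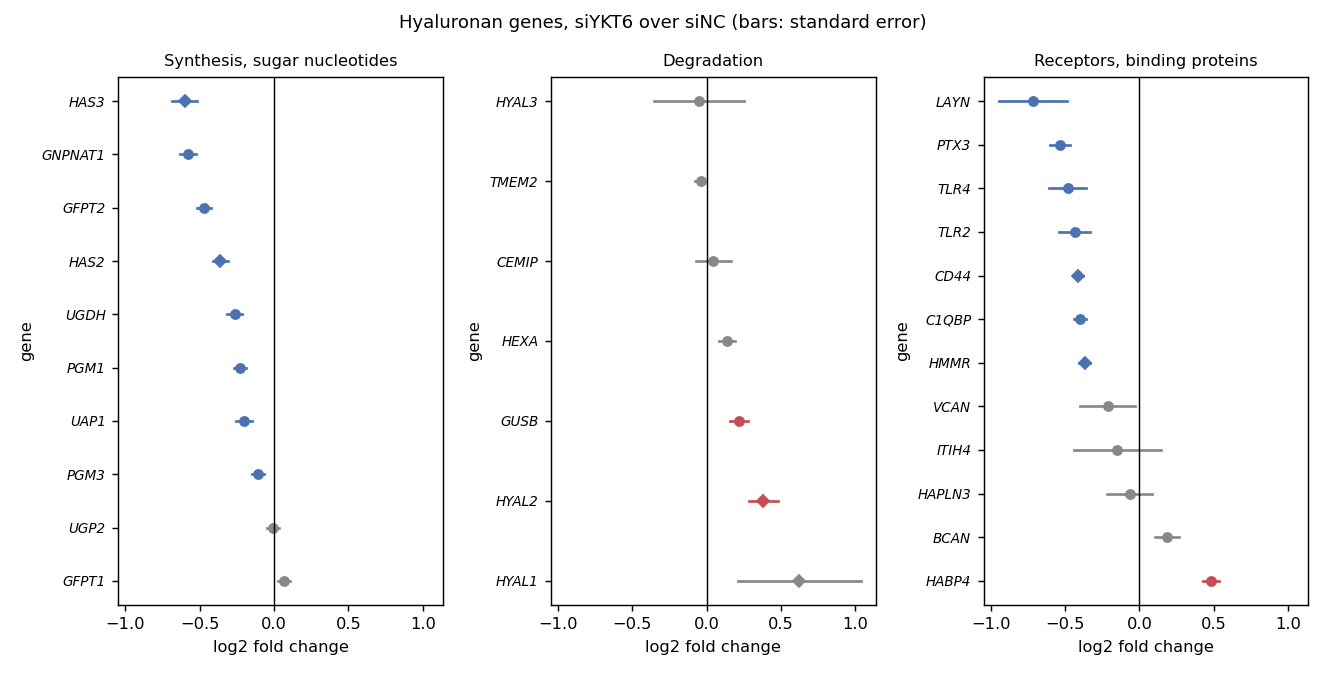
Log2 fold change of siYKT6 over siNC, with standard errors, for the tested genes of the 3 hyaluronan lists, 1 of the degradation list left out; diamonds are HAS2, HAS3, HYAL1, HYAL2, CD44 and HMMR, blue is lower and red higher at an adjusted p below 0.05, and grey did not pass. In the synthesis panel 8 of 10 genes are blue, and in the receptor panel 7 of 12, while the degradation panel shows 2 red genes and 5 grey ones.

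CD44 is tied to actin by ezrin, radixin and moesin, is cut by membrane proteases and then by γ-secretase, and is spliced by several RNA-binding proteins. Of 20 such genes 4 were lower, 6 higher and 10 did not pass, with a median log2 fold change of 0.02. The sheddase MMP14 fell from 451 ± 1.58 to 358 ± 4.54 CPM (SD, n = 3, log2 fold change -0.33, edgeR adjusted p = 2.2e-08). ADAM17 (-0.22), ADAM10 (-0.18) and the splicing factor HNRNPA1 (-0.12) were also lower. Of the linkers, RDX rose from 306 ± 10.5 to 381 ± 6.12 CPM (log2 fold change 0.32, edgeR adjusted p = 1.7e-07) and EZR from 1322 ± 25.1 to 1485 ± 34.2 CPM (0.17, adjusted p = 0.00012). The scaffold IQGAP1 (0.24) and the CD44-binding tumor suppressor NF2 (0.21) were higher, and MSN did not pass (-0.04).

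HMMR was lower while most other genes of mitosis that passed were higher. Of 20 spindle partners and mitotic genes 12 were higher, 4 lower and 4 did not pass, with a median log2 fold change of 0.12. KIF15, a mitotic kinesin, rose from 136 ± 2.44 to 182 ± 2.33 CPM (SD, n = 3, log2 fold change 0.42, edgeR adjusted p = 2.5e-09). TPX2, the spindle assembly factor that HMMR binds, rose from 609 ± 15.5 to 733 ± 6.003 CPM (0.27, adjusted p = 5.0e-07 in edgeR), and KIF11 (0.33) and CENPF (0.25) were higher as well. The 3 genes that were lower with HMMR were TUBG1, the γ-tubulin of spindle poles (104 ± 2.89 to 82.0 ± 0.645 CPM, log2 fold change -0.34, edgeR adjusted p = 1.8e-07), NEDD1 (-0.21) and NUSAP1 (-0.14). CCAAT and TTTGAA stood together in 6 of the 17 promoters of this list that had a window, and 4 of these genes were higher (CCNB2, CDC20, CDK1 and KIF11), 1 did not pass (PLK1) and 1, HMMR, was lower. The 3′ UTR word shown above was in HMMR, NUSAP1 and BARD1 of the list, of which the first 2 were lower and BARD1 higher (log2 fold change 0.24). In the other lists it was in UGDH, LAYN, TLR4, ADAM10, ADAM17 and EXTL2, which were lower, and in GFPT1, CEMIP, PSEN2, EXTL3 and HPSE, which did not pass.

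**Figure D4:**
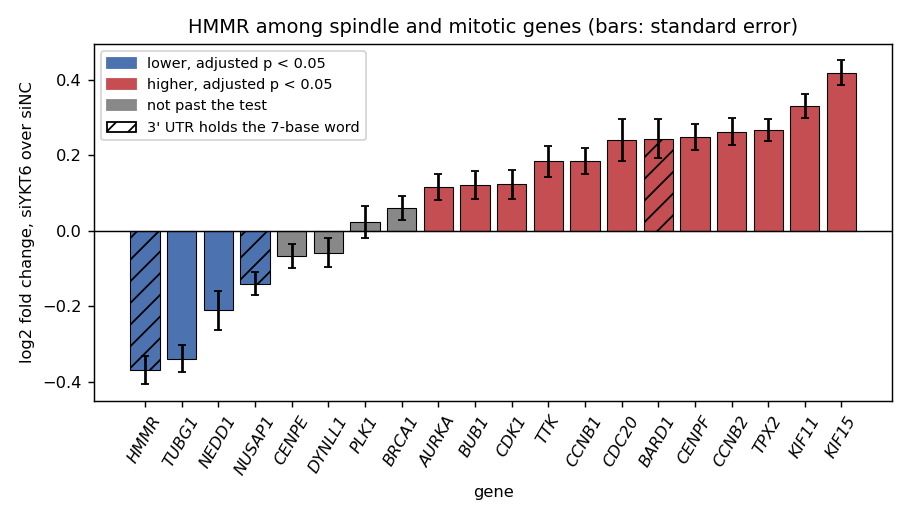
Log2 fold change of siYKT6 over siNC, with standard errors, for HMMR and the 19 other spindle and mitotic genes, ordered by size; hatching marks a 3′ UTR with the word CTCTACA. HMMR, at -0.37, is at the low end, and 12 of the genes are higher.

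Counts assigned to antisense genes at 3 of the genes were lower with them. HMMR-AS1, which shares 113 exon bases with HMMR on the other strand, fell from 28.8 ± 1.11 to 21.2 ± 1.61 CPM (SD, n = 3, log2 fold change -0.44, edgeR adjusted p = 2.3e-06). HAS2-AS1, which shares 201 bases with HAS2, fell from 2.97 ± 0.419 to 2.09 ± 0.313 CPM (log2 fold change -0.50, edgeR adjusted p = 0.013). At CD44, the antisense RP1-68D18.4 shares 84 bases and fell from 14.0 ± 0.550 to 10.7 ± 0.618 CPM (log2 fold change -0.39, edgeR adjusted p = 8.2e-05). CHTF8, antisense to HAS3 over 365 bases, did not pass (log2 fold change 0.03). The libraries were stranded, but the sources used here do not give the strand setting of the counting. In the shared bases a gene and its partner therefore cannot be told apart. The same holds where antisense exons lie within the span of the other gene, as all of RP1-68D18.4 does in CD44. Whether these counts came from antisense RNA was not tested.

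The syndecans were set beside the other core proteins that carry heparan sulfate. Of 12 core proteins tested 4 were lower and 1 higher, with a median log2 fold change of -0.12, and without the syndecans 3 of 8 were lower, beside a background of 16.3% lower and 14.6% higher. The counts were not tested against it. The basement membrane proteoglycan HSPG2 (perlecan) fell from 37.2 ± 0.920 to 26.5 ± 0.214 CPM (SD, n = 3, log2 fold change -0.49, edgeR adjusted p = 1.7e-08). GPC1 (-0.24) and COL18A1 (-0.27) were lower, and GPC4 (0.20) was higher.

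Of 25 tested enzymes that build and trim heparan sulfate chains 6 were lower, 0 higher and 19 did not pass in edgeR, with a median log2 fold change of -0.01. The background over all genes was 16.3% lower and 14.6% higher, so the share of these enzymes called was below that of all genes (30.8%). DESeq2 and limma-voom also called 0 higher, and 0 rose at an unadjusted p of 0.05. SULF2, an extracellular sulfatase that removes sulfate from the chains, had the smallest p of the list, at 209 ± 0.445 CPM in siNC and 142 ± 3.21 CPM in siYKT6 (SD, n = 3, log2 fold change -0.56, edgeR adjusted p = 2.5e-11). HS3ST1, a 3-O-sulfotransferase, fell from 4.18 ± 0.343 to 2.23 ± 0.184 CPM (log2 fold change -0.90, edgeR adjusted p = 5.1e-06), and GLCE (-0.38) and EXTL2 (-0.37) were lower. SULF1 and HS6ST1, named after their values were seen, made up the 6, at -0.43 and -0.16. SULF1 lay at the threshold (edgeR adjusted p = 0.0497). With DESeq2, limma-voom or the replicate block 5 of the enzymes were lower, and with the filter of 1 CPM 7 were. A single gene was higher without siNC replicate 1 or without siYKT6 replicate 1, in place of 0.

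Of 13 tested partners and sheddases of syndecans 7 were lower and 3 higher, with a median log2 fold change of -0.16. CASK, a scaffold that binds the syndecan tail, fell from 183 ± 2.56 to 139 ± 0.942 CPM (SD, n = 3, log2 fold change -0.40, edgeR adjusted p = 3.9e-09). The sheddase MMP7 was lower as well, at 3.405 ± 0.452 CPM and 1.81 ± 0.303 CPM (log2 fold change -0.91, edgeR adjusted p = 5.8e-05), with CTTN (-0.19) and MMP14. MMP14, ADAM10 and ADAM17 are in both this list and that of CD44 above, so the lower counts of these lists are not separate. Among other PDZ proteins that bind this tail, SDCBP (syntenin) rose from 125 ± 4.09 to 146 ± 1.37 CPM (log2 fold change 0.22, edgeR adjusted p = 3.4e-05) and GIPC1 from 22.6 ± 1.02 to 29.1 ± 1.68 CPM (0.36, adjusted p = 1.5e-05), while SDCBP2 did not pass (0.54, adjusted p = 0.28). TIAM1, an exchange factor for Rac, was also higher (0.18).

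**Figure D5:**
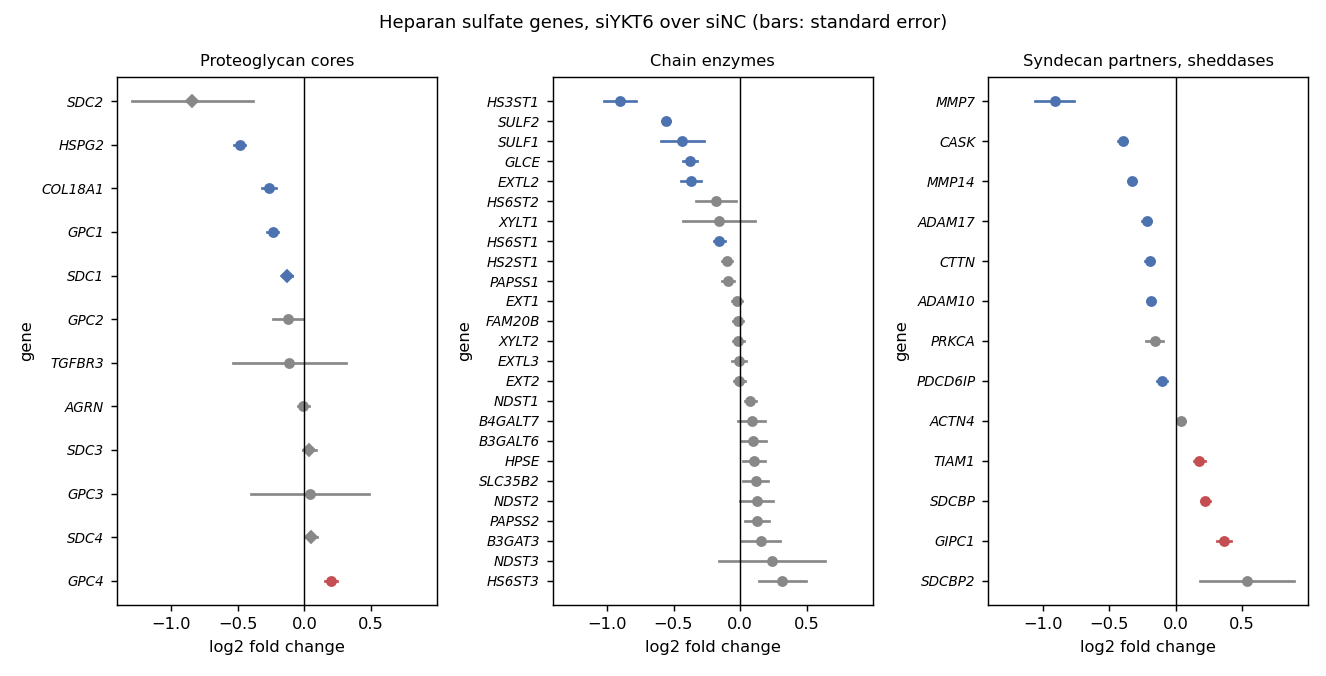
Log2 fold change of siYKT6 over siNC, with standard errors, for every tested gene of the 3 heparan sulfate lists; diamonds are the 4 syndecans, blue is lower and red higher at an adjusted p below 0.05, and grey did not pass. Of the syndecans SDC1 is blue and the other 3 are grey, and 19 of 25 chain enzymes are grey.

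For each of the 6 genes that passed, the genes with the most similar profile were found by the Euclidean distance between log2 CPM values over the 6 samples, centred on the siNC mean, among genes of at least 5 CPM. CD44 lay closest to MCTP2 (distance 0.0327) and RP11-625L16.3 (0.0455). HMMR lay closest to ATP6V1C2 (0.0350) and YBX3 (0.0438), neither of which is in the mitotic list. The gene closest to HAS2 was the integrin subunit ITGB4 (0.0259), followed by MAVS (0.0386). SERINC2 (0.0971) was nearest to HAS3, CP (0.0865) and GIPC1 (0.109) to HYAL2, and ZBED1 (0.0275) and TDG (0.0321) to SDC1. With 6 samples in 2 groups, such distances mostly reflect a similar fold change, and HAS3 and HYAL2, the least abundant of the 6, had the most distant neighbours.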

How the data were processed

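RNA-seq of 6 samples of 5637 cells, 3 siNC and 3 siYKT6, was analysed from the table the authors deposited, which holds raw counts per gene. The authors prepared stranded mRNA libraries, cleaned the reads (fastp 0.23.0), mapped them to GRCh38 and assigned those in exons to genes (featureCounts, Subread 1.5.1). The aligner is not named in the sources used here. Even numbers made up 68.8% to 70.0% of counts from 1 to 20, as happens when a read pair counts as 2, so halved counts were tried. The table has 0 columns of other samples.

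Genes were filtered with filterByExpr, which left 21036 and removed 15851, scaled by TMM and tested with edgeR 4.0.16 (quasi-likelihood test, R 4.3.3) with Benjamini-Hochberg adjustment at 0.05. This test, and not the DESeq2 of the study's methods, was the main one. It gives no standard error, so this was taken as the absolute log2 fold change over the square root of its F statistic. The 95% intervals are the log2 fold change plus or minus this standard error times a t quantile. CPM use the TMM-adjusted library size, and levels between genes were divided by exon length. Shares and ratios were compared by exact two-sided permutation tests. The fit was tested on simulated data. Same-numbered samples did not deviate together (correlations -0.0009, -0.037 and 0.015). The mean chi-square per gene between libraries of 1 group was 3.65 to 6.06. No value expected of a repeated library was set, so this cannot decide whether any is a repeat, and all 6 were kept.

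Alternatives were DESeq2-type size factors, upper quartile scaling, no filter, at least 1 CPM in all samples, DESeq2 1.42.0, limma-voom (limma 3.58.1), a replicate block, halved counts and leaving out each sample. The genes and lists were chosen with earlier results of these data known. Named are the 10 genes, YKT6, genes overlapping them, in each list up to 4 genes of smallest p among those lower and among those higher, and the 2 nearest profiles of each called gene. Promoters and 3′ UTRs are from RefSeq (GRCh38.p14) and GENCODE v44. Sequences of HAS2 and SDC2 are not shown, and 1 gene that this rule names is not reported here.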

Additional observations from a re-analysis of the deposited data

How the results depend on the processing

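CD44, HMMR, HAS2 and HAS3 stayed lower, and HYAL2 higher, past the threshold under all 14 alternatives, with log2 fold changes of -0.43 to -0.40, -0.40 to -0.33, -0.38 to -0.34, -0.68 to -0.55 and 0.32 to 0.47. SDC1 passed under 11 of 14, with values of -0.16 to -0.11, and the cause was not tested where it did not. SDC3 and SDC4 passed under none. HYAL1 and SDC2 had a log2 fold change under 12 alternatives, since halved counts and the filter of 1 CPM removed both. They passed under none of the 12, though DESeq2 gave them no adjusted p. With the replicate block the same 6 of the 10 genes passed, and 6270 genes in place of 6485 were called of all tested. With halved counts 6553 were called. Leaving out 1 sample gave 5 or 6 of the 10 genes and 5419 to 6058 of all. Chain enzymes of heparan sulfate had 1 gene higher in place of 0 with no filter, where more genes were tested. None of the 6 genes that passed changed direction. Over all genes, 3419 lower and 3066 higher became 3094 and 3475 with upper quartile scaling and 3181 and 3309 with no filter, so which direction holds more calls depends on these choices. HYAL1 and SDC2, with under 20 counts in each library, are limited by depth.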
